A study of Mus musculus with 6 samples.

Results

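The EGR and NR4A factors studied here are 7 genes: the zinc finger transcription factors Egr1, Egr2 and Egr3, the orphan nuclear receptors Nr4a1, Nr4a2 and Nr4a3, and Nab2, a corepressor that binds EGR proteins. They were chosen by symbol from the annotation of the array, and all 7 were measured, each by 1 probe set, among 19494 genes in all. Arrays compared 2 fractions of sorted mouse Tregs (regulatory T cells) of the tumour-bearing colonic lamina propria, 3 of GPR15-GFP+ cells and 3 of GPR15-GFP- cells. The samples of each fraction carry the numbers 1, 5 and 6 in their titles. Every mouse had the genotype Foxp3-RFP x GPR15-GFP, that is, a red reporter of the Treg factor Foxp3 and a green reporter of the gut homing receptor GPR15. All had been given azoxymethane (AOM), a carcinogen, and dextran sulfate sodium (DSS), which injures the colon, so no group is free of tumours. Both fractions were CD4-stained, RFP+ cells released with collagenase IV and sorted straight into lysis buffer. The labels give no age, and do not say whether a number marks an animal or a pool.

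EGR and NR4A genes are immediate-early genes: a T cell that binds antigen transcribes them within a short time, before any new protein is needed. Signals through Ras and ERK act on serum response factor at the EGR promoters, while calcium acts through calcineurin and NFAT on EGR2 and EGR3 and through MEF2 on Nr4a1. In T cells EGR2 and EGR3 are known for restraining activation, by way of ubiquitin ligases and inhibitory receptors, and NR4A factors for helping to form and maintain Tregs. Because they respond so fast, their transcripts can also change while a tissue is being digested.

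The bases just before the transcription starts are shown to set the 3 NR4A genes beside Egr2, the member with the most even difference below, for the letters of cyclic AMP response elements and of the CArG box. NFAT and MEF2 motifs were not sought. The sequences are from RefSeq (build GRCm38.p6) and were read for 5 of the 7 members, Egr2, Nr4a1, Nr4a2, Nr4a3 and Nab2. Those of Egr1 and Egr3 were not read, so their promoters are not described here. Each NR4A sequence is the 250 bases before the start, on the gene's own strand. Capitals mark TGACG, the core of the cyclic AMP response element, on either strand (CGTCA is its reverse), together with its variant TGCGTCA and the CArG box bound by serum response factor.
Nr4a1 (chr15:101266596-101266845, + strand): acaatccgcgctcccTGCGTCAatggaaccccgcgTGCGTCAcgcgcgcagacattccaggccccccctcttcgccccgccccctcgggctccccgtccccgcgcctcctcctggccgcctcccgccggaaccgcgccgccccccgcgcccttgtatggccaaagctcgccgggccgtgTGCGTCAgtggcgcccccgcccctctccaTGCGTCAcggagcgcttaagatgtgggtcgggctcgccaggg
Nr4a2 (chr2:57124004-57124253, - strand): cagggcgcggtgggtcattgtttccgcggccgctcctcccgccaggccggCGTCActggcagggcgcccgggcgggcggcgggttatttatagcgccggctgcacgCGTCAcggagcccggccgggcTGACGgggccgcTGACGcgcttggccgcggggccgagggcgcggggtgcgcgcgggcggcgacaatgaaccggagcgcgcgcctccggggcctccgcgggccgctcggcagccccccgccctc
Nr4a3 (chr4:48045055-48045304, + strand): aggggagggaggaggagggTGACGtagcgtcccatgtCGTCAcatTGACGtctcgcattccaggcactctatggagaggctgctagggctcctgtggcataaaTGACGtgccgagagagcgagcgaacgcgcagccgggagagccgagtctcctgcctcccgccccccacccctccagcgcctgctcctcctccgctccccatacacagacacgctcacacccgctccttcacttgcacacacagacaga
Egr2 (chr10:67537793-67537822, + strand, 30 bases, from 76 to 47 before the third of 5 listed starts): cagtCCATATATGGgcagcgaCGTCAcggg

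Each of the 3 NR4A promoters held TGACG 4 times, counting both strands. In Nr4a1 all 4 lay inside TGCGTCA, which thus occurred 4 times. Of 32851 mouse promoter windows of the same length, 17.8% held TGACG at least once and 0.137% at least 4 times, and Nr4a1 was the 1 window with TGCGTCA at least 4 times. The Egr2 stretch joins a CArG box, from 72 to 63 bases before that start, to a TGACG on the reverse strand 55 to 51 bases before it. It was cut around the CArG box, and the full window of that start held TGACG 2 times. The windows of starts 4 and 5 held the same CArG box and also TGACG 2 times. Start 2 had another CArG box and 0 TGACG, and start 1 had 0 of either. A CArG box was present in 1.47% of all windows and in 0 of the 3 NR4A windows. The full palindrome TGACGTCA was in 0 of the windows read for the members and in 1.55% of all. AAAGGTCA, which NR4A monomers bind, was in 0 of those windows and in 1.34% of all. Of the EGR motifs, GCGTGGGCG was in 0 and GCGGGGGCG in Nr4a1 alone (0.536% and 2.57% of all windows). The Nab2 window held none of these letters. A match describes the sequence and is not evidence of binding in these cells.

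Values below are log2 intensities, normalized by the authors with RMA (background correction, quantile normalization and summary per probe set). They lay between 2.85 and 13.1 on the 6 arrays, with medians from 6.49 to 6.64 and SDs of 1.63 on both arrays numbered 1 against 1.74 to 1.87 on the other 4. Differences are GPR15+ minus GPR15-, tested with limma and adjusted by Benjamini-Hochberg over all 19494 genes, with calls at 0.05. The number of arrays limits precision, and levels of different genes are not compared, since probe sets differ in their response. Over all genes the median difference was -0.06, and 40.8% lay above 0. Gpr15 itself lay lower in the samples labelled GPR15+, by 0.65 on the log2 scale, so each direction rests on the labels. The T cell gene Cd3e lay at 11.04 and 11.23 in the GPR15- and GPR15+ fractions, and the Treg marker Il2ra, which encodes CD25, at 5.28 and 5.06. Foxp3 was not analysed here.

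Of the 7 genes, Egr2 alone lay on the same side of 0 in every pair of equal number, against 37.0% of all genes, and 13.4% in its direction. It lay higher in the GPR15+ samples by 0.62 ± 0.26 (SE) log2 units, or 1.53-fold. The other 6 had differences between -0.44 and -0.01. In the fit without array weights, none of the 7 passed the adjusted threshold, as none of all genes did (0% called, smallest limma adjusted p = 0.540). At an unadjusted p under 0.05, limma picked 1 of 7, Egr2, against 6.23% of all genes. Egr2 was not picked in 4 of 6 fits that left out 1 array, where the unadjusted limma p was 0.165 and 0.065 when the GPR15- arrays numbered 1 and 5 were dropped, and 0.126 and 0.152 when the GPR15+ arrays numbered 5 and 6 were. Nab2 was picked as well when the GPR15+ array numbered 1 was dropped, a fit that picked 22.3% of all genes. Egr1 was picked beside Egr2 when both arrays numbered 1 were dropped, a fit that picked 21.0% of all genes. The 2 fractions did not overlap for 0 of the 7, against 13.3% of all genes. The median difference of the 7 was -0.09, close to the -0.06 of all genes. It went from -0.14 to 0.04 as single arrays were left out, and was 0.03 without both arrays numbered 1.

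**Figure D1:**
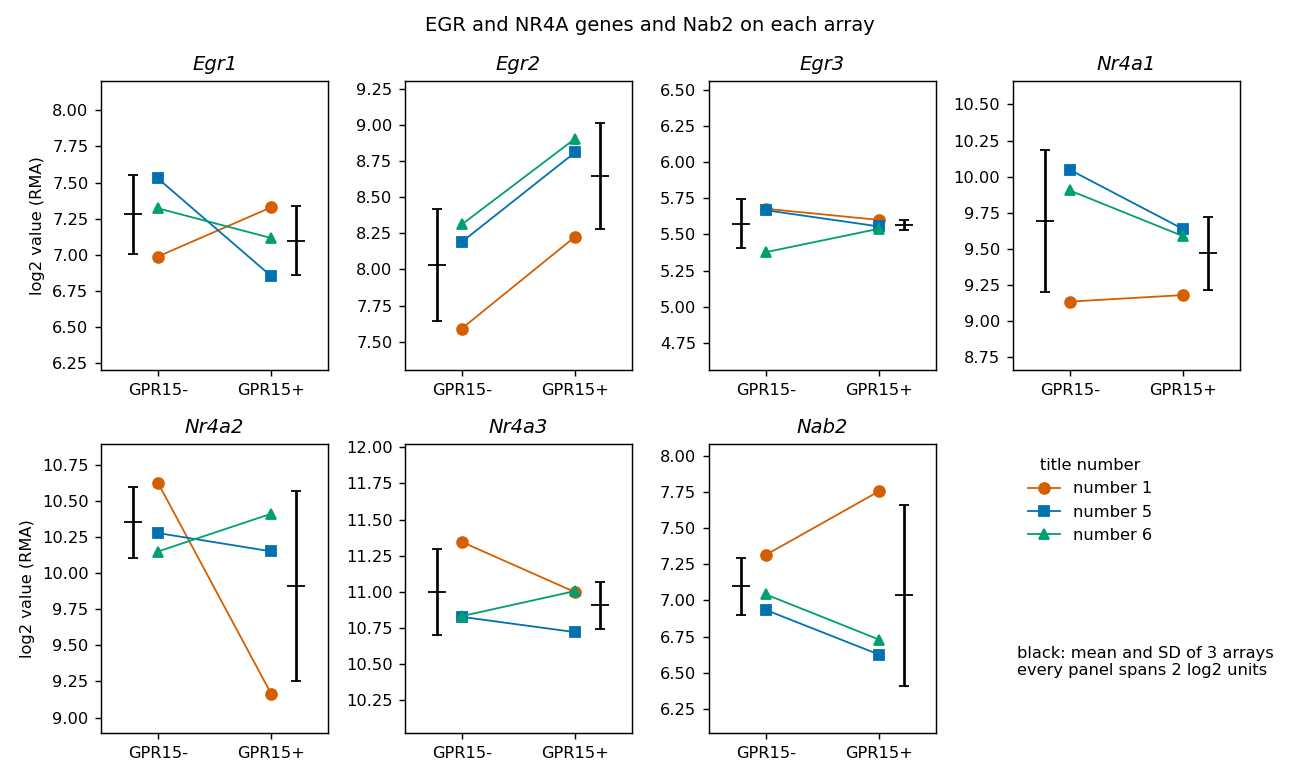
Log2 value (vertical axis) of each gene on each array, with lines joining the GPR15- and GPR15+ samples of equal title number and black marks for the mean and SD of 3 arrays. Every panel covers the same span, so slopes can be compared: the 3 Egr2 lines run parallel and upward, and the Nr4a2 line of number 1 runs down by 1.46.

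Egr2 encodes the EGR factor most tied to T cell tolerance. In the GPR15- samples numbered 1, 5 and 6 it lay at 7.59, 8.19 and 8.31 log2 units, and in the GPR15+ samples at 8.23, 8.81 and 8.91. The fractions overlapped by a small margin, since the lowest GPR15+ sample, number 1, lay below the highest GPR15- sample, number 6. The means were 8.03 ± 0.39 (SD, n = 3) and 8.65 ± 0.37 (SD, n = 3). Within the numbers 1, 5 and 6 the differences were 0.64, 0.62 and 0.59. These 3 values had an SD of 0.021, among the smallest of all genes (percentile 0.482). In 106 genes (0.544%), Egr2 among them, all 3 pairs lay at least as high as the lowest Egr2 pair. Egr2 was singled out by these same pairs, so the percentile and the share describe its values and are no test. Both also rest on matching the samples by number.

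Egr2 was called only with array weights, and its p depended on how the spread was estimated. Without a block the limma adjusted p was 0.773 (unadjusted 0.0488), with a 95% interval of the difference from 0.004 to 1.23. With the number as a replicate block, the SE went to 0.15 and the limma adjusted p to 0.291 (unadjusted 0.00412), and 12.4% of all genes then had an unadjusted p under 0.05. With limma's array quality weights Egr2 differed by 0.72 and passed (limma adjusted p = 0.0327), as did 2174 genes (11.2%). Those weights gave GPR15+ replicate 6 a weight of 6.56 and GPR15+ replicate 1 a weight of 0.191, so that fit leaned on 1 array. Their estimation stopped before it converged. Without GPR15- replicate 1, the sample with the lowest Egr2, the difference was 0.40.

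Egr1 is the family member most used as a mark of recent ERK signalling. It lay at 6.99, 7.53 and 7.32 in the GPR15- samples 1, 5 and 6 and at 7.33, 6.85 and 7.12 in the GPR15+ samples. The pair differences were 0.34, -0.68 and -0.21, so number 1 went against the other 2. The difference was -0.18 ± 0.21 (SE), with a 95% interval from -0.67 to 0.30 (limma adjusted p = 0.872). Egr3, which acts beside EGR2 in T cells, was even, at 5.68, 5.67 and 5.38 in GPR15- samples and 5.60, 5.55 and 5.54 in GPR15+ samples. Its difference was -0.01 ± 0.16 (SE), with an interval from -0.39 to 0.37 (limma adjusted p = 0.993). It turned to 0.06 when arrays were centred on their medians and to 0.12 when the dependence on level was removed. Of the 2 relatives outside the group, Egr4 differed by -0.18 and Nab1, the paralogue of Nab2, by -0.32, with limma adjusted p of 0.824 and 0.809.

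Nab2 is itself induced by EGR factors and then represses them. In GPR15- samples it lay at 7.31, 6.93 and 7.04, and in GPR15+ samples at 7.76, 6.63 and 6.73. The highest and the lowest samples were both GPR15+, and the pair differences were 0.44, -0.31 and -0.31. The difference was -0.06 ± 0.31 (SE) with an interval from -0.77 to 0.65 (limma adjusted p = 0.972), and it was 0.01 under each of the 3 rescalings. It was -0.42 without GPR15+ replicate 1 (limma unadjusted p = 0.0458, adjusted p = 0.217) and -0.31 without both arrays numbered 1. Nab2 therefore did not follow Egr2 across the pairs, except in number 1, where both lay higher in the GPR15+ sample.

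**Figure D2:**
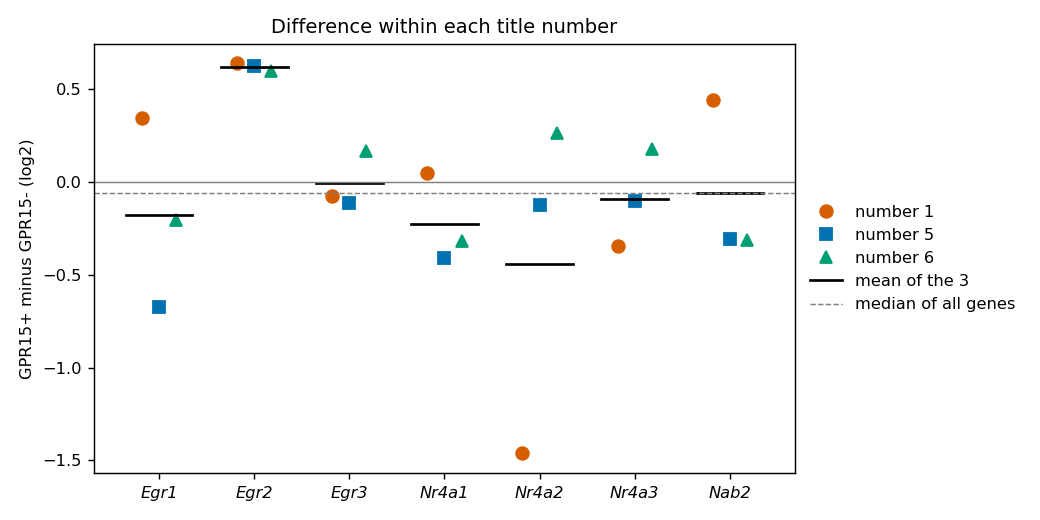
GPR15+ minus GPR15- log2 difference (vertical axis) for each gene within the title numbers 1, 5 and 6, with the mean of the 3 as a black bar and the median of all genes, -0.06, as a dashed line. Only for Egr2 do all 3 points lie on the same side of 0, from 0.59 to 0.64.

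Nr4a1, also known as Nur77 and widely used as a reporter of antigen receptor signal strength, lay at 9.14, 10.05 and 9.90 in GPR15- samples 1, 5 and 6. In GPR15+ samples it lay at 9.18, 9.64 and 9.59. The difference was -0.23 ± 0.27 (SE), with an interval from -0.86 to 0.40 (limma adjusted p = 0.875). Both samples numbered 1 were the lowest of their fraction, and the pair differences were 0.05, -0.41 and -0.32. Nr4a1 and Egr2 thus lay on opposite sides in the numbers 5 and 6.

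Nr4a2 had the widest spread of the group. Its GPR15- samples lay at 10.63, 10.28 and 10.15, and its GPR15+ samples at 9.16, 10.15 and 10.41. The lone low value was GPR15+ replicate 1, and the other 5 arrays were within the range from 10.15 to 10.63. The difference was -0.44 ± 0.33 (SE), or 1.36-fold lower (limma adjusted p = 0.803; interval from -1.20 to 0.31). It shrank to -0.07 without GPR15+ replicate 1, and without both arrays numbered 1 it was 0.07. The pair differences were -1.46, -0.13 and 0.26, and their SD lay at the 97.9 percentile of all genes.

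Nr4a3, a close relative that can stand in for Nr4a1 in T cells, lay at 11.35, 10.83 and 10.83 in GPR15- samples and at 11.00, 10.72 and 11.01 in GPR15+ samples. The difference was -0.09 ± 0.20 (SE) with an interval from -0.56 to 0.38 (limma adjusted p = 0.931). The pair differences were -0.35, -0.11 and 0.17, on both sides of 0. No NR4A gene thus had a direction shared by all 3 numbers.

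For several members the means of the title numbers lay as far apart as those of the fractions. Averaged over the 2 fractions, Egr2 lay at 7.91 in number 1 against 8.50 and 8.61 in numbers 5 and 6, a range of 0.70 beside its fraction difference of 0.62. Nr4a1 lay at 9.16 against 9.84 and 9.75. Nab2 went the other way, at 7.54 against 6.78 and 6.89. The ranges over numbers of Nr4a1 (0.68) and Nab2 (0.76) were above the median over all genes of 0.37, while that of Egr1 was 0.06. Of all genes, 77.5% had a range over numbers that exceeded their fraction difference. The measures are unlike: a range over 3 means of 2 arrays tends to exceed a difference between 2 means of 3 arrays even without any effect of number. The comparison therefore does not show whether number or fraction moved the values more. The arrays numbered 1 were also those with the narrowest spread of values, and the part of that in these levels was not tested.

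Over the 6 arrays the 7 genes did not vary together. Of 21 pairs of members, 9 had a Pearson correlation above 0 and 12 below, from -0.74 (Nr4a1 with Nr4a3) to 0.51 (Nr4a3 with Nab2). Egr2 and Nr4a1 stood at 0.37, and at 0.92 once each fraction's mean had been subtracted. Nr4a1 and Nr4a3 stood at -0.90 on that footing. These values describe 6 arrays that share numbers and fractions, and no test was made of them. The mean of the 7 genes, each centred, therefore moved little, from -0.08 to 0.09 over the arrays. The genes most like that mean were Pwp1, Slc27a1, Chst10, Vmo1, Smim18 and Krt77, with Pearson correlations from 0.97 to 0.99.

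Most of the listed genes upstream of these factors had differences above 0, and none passed without array weights (0% of all genes). Of 15 measured genes of the T cell receptor complex and proximal signalling, 13 lay above 0, with a median of 0.19. The 3 with the smallest p were the receptor chain Cd247 (0.32) and the adaptors Grap2 (0.45) and Lat (0.29). Larger differences with more spread were those of the exchange factor Vav1 (0.72) and the kinase Csk (0.52), while the phosphatase Ptprc (CD45) lay at 0.15. Of 16 calcium, calcineurin and NFAT genes, 12 lay above 0 with a median of 0.17. They included the calcineurin subunit Ppp3cc (0.49) and the calcium sensor Stim1 (0.43), while the channel Orai1 lay at -0.21. Of 17 Ras, ERK, SRF and MEF2 genes, 13 lay above 0 with a median of 0.20. The Ras activator Rasgrp1 differed by 0.47 ± 0.20 (SE), the GTPase Nras by 0.69 ± 0.42 (SE) and Mef2d, a transcription factor upstream of Nr4a1, by 0.41 ± 0.16 (SE).

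Mef2d lay at 8.27, 8.38 and 8.41 in GPR15- samples and 8.63, 8.94 and 8.71 in GPR15+ samples. The fractions of this gene did not overlap, as in 4.12% of all genes in that direction. Within the numbers 1, 5 and 6 the list medians were 0.17, 0.11 and 0.18 for receptor genes and 0.06, 0.20 and 0.29 for Ras genes, but -0.06, 0.24 and 0.20 for calcium genes, which lay below 0 in number 1. In these lists 15 of 15, 15 of 16 and 15 of 17 genes had values above the median of all genes. With the dependence of the difference on level removed, their medians were 0.15, 0.08 and 0.15, and after a further quantile normalization 0.12, 0.05 and 0.09. With array weights 0 of 15, 2 of 16 and 3 of 17 passed, all higher, against 11.2% of all genes in either direction.

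**Figure D3:**
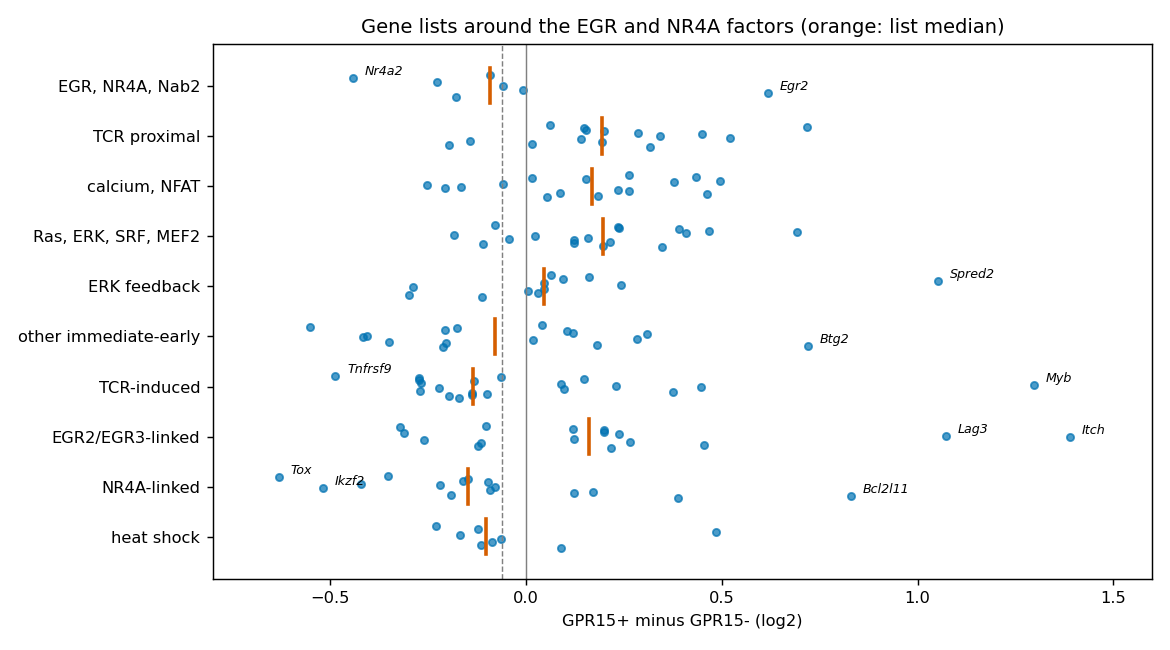
GPR15+ minus GPR15- log2 difference (horizontal axis) of every measured gene in each list, 1 point per gene, with orange bars for list medians and a dashed line for the median of all genes, -0.06. Receptor, calcium and Ras lists have medians from 0.17 to 0.20, while the EGR and NR4A genes have a median of -0.09 with Egr2 apart at 0.62.

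Genes induced alongside the EGR and NR4A factors showed no common direction. Of 16 other immediate-early genes, 8 lay above 0 and 8 below, with a median of -0.08. The antiproliferative gene Btg2 differed by 0.72 ± 0.28 (SE) but by -0.13 in number 1. The AP-1 subunit Jun differed by 0.31 and Ier3 by -0.42. Of 12 feedback inhibitors of ERK, 9 lay above 0 with a median of 0.05. Spred2, which blocks Raf activation, stood out at 1.05 ± 0.30 (SE), and Dusp6, an ERK phosphatase, lay at -0.29 and Spry2 at 0.16. Spred2 was at 7.71, 7.62 and 6.67 in GPR15- samples and 8.20, 8.68 and 8.29 in GPR15+ samples, without overlap (limma adjusted p = 0.773).

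Of 20 other genes induced by T cell receptor signalling, 7 lay above 0 and 13 below, with a median of -0.14. Irf4, a factor of effector Tregs, differed by 0.45 ± 0.19 (SE) and Myb, another, by 1.30 ± 0.43 (SE), while Tnfrsf9, which encodes the costimulatory receptor 4-1BB, differed by -0.49 ± 0.23 (SE). Irf4 and Myb were nearer to 0 in number 1 (0.11 and 0.34) than in the numbers 5 and 6. Heat shock genes, which change when tissue is digested, had 2 of 8 above 0 and a median of -0.10. Their mean level per array ran from 9.74 to 10.31 in GPR15- samples and from 9.77 to 10.08 in GPR15+ samples. Hspd1 lay at 0.48, Hsph1 at -0.23 and Hspa5 at -0.17.

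Among 16 genes tied to EGR2 and EGR3 in tolerance, 10 lay above 0 with a median of 0.16, and 2 had differences above 1. Lag3, an inhibitory receptor and known target of EGR2, lay at 6.48, 6.33 and 6.69 in GPR15- samples and at 7.25, 7.60 and 7.86 in GPR15+ samples. All 3 GPR15+ samples lay above all GPR15- samples. The difference was 1.07 ± 0.21 (SE), or 2.10-fold higher (limma unadjusted p = 0.000929, adjusted p = 0.773). Itch, a ubiquitin ligase of T cell anergy, lay at 5.72, 6.14 and 6.27 against 6.996, 8.17 and 7.12, again without overlap. It differed by 1.39 ± 0.33 (SE), or 2.62-fold (limma adjusted p = 0.773). Nrgn, a calmodulin-binding protein gene, lay the other way at -0.31. The list was assembled from known biology with earlier results of these data in view, and its count is no independent evidence of a direction.

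Of 15 genes tied to NR4A factors, 4 lay above 0 and 11 below, with a median of -0.15. Bcl2l11, which encodes the death protein BIM, lay at 7.68, 7.05 and 7.18 in GPR15- samples and 8.30, 8.12 and 7.98 in GPR15+ samples. It differed by 0.83 ± 0.21 (SE), with no overlap (limma adjusted p = 0.773). Tox, a DNA-binding factor of chronically stimulated T cells, lay at 12.06, 12.37 and 12.09 against 11.33, 11.70 and 11.60, without overlap like 9.17% of all genes in that direction, and differed by -0.63 ± 0.18 (SE). Ikzf2, the Treg factor Helios, differed by -0.52 ± 0.19 (SE). Neither passed (limma adjusted p = 0.773 for both). These adjusted p are from the fit without array weights. With the weights, 2 of 16 EGR-linked genes passed, Lag3 and Itch (limma adjusted p = 0.0137 and 0.0308), as did 6 of 15 NR4A-linked genes, 2 higher and 4 lower, among them Bcl2l11 (0.0230), Tox (0.0300) and Ikzf2 (0.0390). There 2 of 12 ERK feedback genes, 3 of 16 other immediate-early genes and 2 of 20 other receptor-induced genes passed too, but 0 of 8 heat shock genes. Spred2, Rasgrp1, Nras, Ppp3cc, Irf4, Myb, Btg2 and Ier3 were among the list genes that passed, beside 11.2% of all genes. Gpr15 passed as well, lower in the samples labelled GPR15+ (limma adjusted p = 0.0461).

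**Figure D4:**
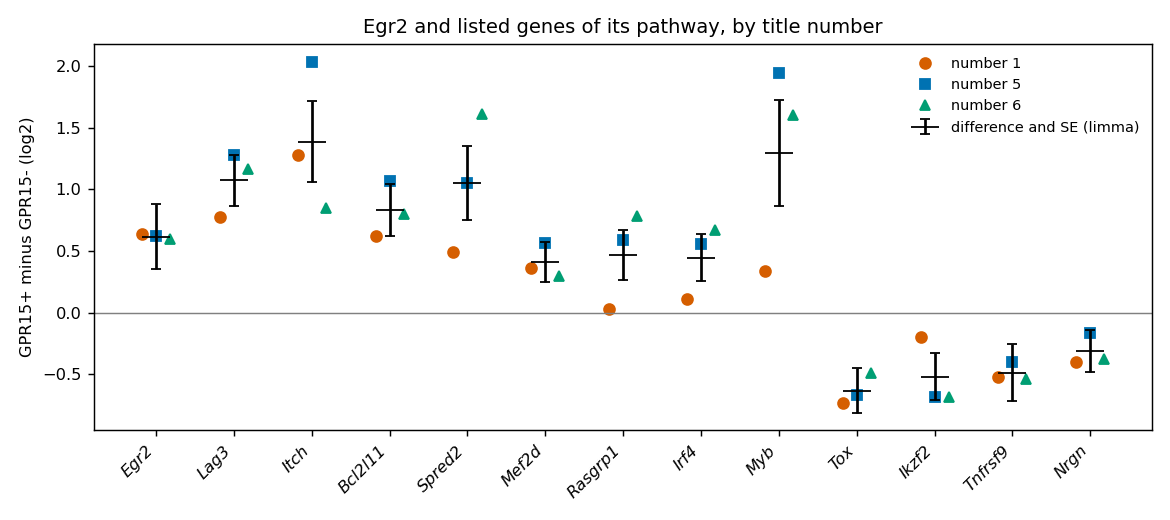
GPR15+ minus GPR15- log2 difference (vertical axis) of Egr2 and 12 genes among the 3 of smallest p in their lists, by title number (coloured points), with limma's difference and SE in black. Of the genes drawn, Egr2 has the closest set of points, while Lag3 (0.77 to 1.28) and Itch (0.85 to 2.04) lie higher and Tox lies between -0.73 and -0.49.

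EGR and NR4A genes are also used by macrophages and other cells that a sort can carry over, so marker lists were read beside them. Of 10 macrophage and granulocyte genes, 9 lay below 0, with a median of -0.15, and their mean level ran from 5.92 to 6.18 in GPR15- samples and from 5.60 to 6.16 in GPR15+ samples. The macrophage genes Lyz2 and Itgam were the lowest of that list, at -0.48 and -0.49. Its brightest genes, Fcgr3, C1qb and Adgre1, lay at -0.14, 0.01 and -0.35. Dendritic cell (6 of 7 below 0, median -0.28), B and plasma cell (5 of 6, -0.28) and epithelial genes (7 of 9, -0.25) leaned the same way. Stromal genes had 6 of 8 below 0 (median -0.06), mast cell genes 4 of 7 (-0.18) and CD8 T and NK cell genes 3 of 7 (0.04). T cell and Treg markers had 4 of 8 below 0, with a median of -0.02. These medians moved with scaling and with the arrays used. With the dependence on level removed they were -0.03 for macrophage, -0.15 for dendritic cell, -0.16 for B cell, -0.16 for epithelial and -0.07 for mast cell genes. The stromal median turned to 0.06 there, to 0.03 with quantile normalization and to 0.01 with centring, and the Treg median turned to 0.05 with centring. Without both arrays numbered 1, medians were -0.27 for macrophage, -0.39 for dendritic cell, -0.36 for B cell, -0.36 for epithelial and -0.03 for mast cell genes. Within the numbers 1, 5 and 6 medians were -0.03, -0.27 and -0.21 for macrophage and -0.04, -0.36 and -0.38 for dendritic cell genes. Those of B cell genes were -0.13, -0.22 and -0.37, and those of epithelial genes -0.01, -0.50 and -0.38. With array weights 3 of 10 macrophage, 1 of 7 dendritic cell, 1 of 6 B cell, 4 of 9 epithelial and 2 of 7 mast cell genes passed, all lower. So did 1 of 8 T cell and Treg genes, also lower, but 0 of 8 stromal and 0 of 7 CD8 T and NK cell genes. Of all genes, 11.2% passed there in either direction. RMA values have no true 0, so absence of a cell type cannot be read from them. The part of these cells in the members' values was not tested, and in sorted bulk RNA fewer cells of a type and less RNA per cell cannot be told apart.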

How the data were processed

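The authors deposited log2 values per probe set made with RMA, per the submitters' processing notes. The array name, software version and annotation build are not given in the sources used here. Of 22142 rows, 19527 had 1 gene symbol, 0 several and 2615 none. Where a symbol had several rows (33 genes, no member), the row with the highest mean was used, which left 19494 genes. Groups and numbers came from the sample titles. The fit used limma 3.58.1 (lmFit, eBayes and no block) under R 4.3.3 and was also tested on simulated data. An exact permutation test of 3 arrays against 3 cannot go below 0.1 (2-sided), so none is given. No source says that the samples came from separate animals, so p-values reflect the spread of these samples alone, which may be technical.

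Deviations from the group means correlated at 0.567, 0.381 and 0.319 between samples numbered 1, 5 and 6, each above 0.1, and equal numbers were treated as pairs. The correlation was also 0.315 for number 6 of the GPR15- samples with number 5 of the GPR15+ samples, and 0.213 for number 5 with number 6. Number 1 of either fraction with 5 or 6 of the other ran from -0.507 to -0.383. Deviations from a group mean cancel out, so a number 1 that stands apart raises every correlation among 5 and 6. These values therefore do not show which samples of the numbers 5 and 6 belong together.

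The members and lists were chosen with earlier results of these data known. Named genes were the members, Egr4, Nab1, Gpr15, Ptprc, per list the 3 with the smallest p, and the 6 genes most like the members' mean. Genes named outside that rule, after their values were seen, were Lyz2, Itgam, Fcgr3, C1qb, Adgre1, Cd3e and Il2ra, as markers. So were Vav1, Csk, Hspa1a, Hspa1b, Dnajb1 and those most like Egr2. Alternatives were the block, each array left out, both arrays numbered 1 left out, median centring, quantile normalization, removal of the dependence on level, the dimmest 40% of genes left out, array weights, and the mean of several rows.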

Additional observations from a re-analysis of the deposited data

How the results depend on the processing

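The count of genes called by limma was 0 under 13 of 14 alternatives and 2174 with array weights, where Egr2 passed at 0.72 (limma adjusted p = 0.0327). The estimation of those weights stopped before it converged. Elsewhere Egr2 kept its direction without a call, from 0.40 to 0.83 as single arrays were left out. With the replicate block the differences were unchanged by construction (Egr2 0.62, limma adjusted p = 0.291), and no other call changed. Genes with an unadjusted limma p under 0.05 went from 1214 to 2411 with the block, to 4101 without both arrays numbered 1, to 713 of 11696 genes without the dimmest (6.10%, beside 6.23% of all) and to 6534 with weights. Egr2 had an unadjusted p of 0.054 without the dimmest genes. Leaving out single arrays gave counts between 668 (GPR15+ number 6 left out) and 4351 (GPR15+ number 1 left out).

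Signs turned for 4 members whose differences were small or rested on number 1. Egr3 (-0.01) became 0.025 without both arrays numbered 1, 0.060 with centring, 0.11 with quantile normalization, 0.12 with the dependence on level removed and 0.015 with weights, and ran from -0.11 to 0.043 over single arrays left out. Nab2 (-0.06) became 0.0090 with centring, 0.013 with quantile normalization and 0.013 with the dependence on level removed, and ran from -0.42 to 0.15. Nr4a2 (-0.44) became 0.067 without both arrays numbered 1 and 0.089 with weights, and ran from -0.69 to -0.07. Nr4a3 (-0.09) became 0.034 and 0.075 under the same 2 settings and ran from -0.18 to 0.079. Egr1 (-0.44 to -0.06) and Nr4a1 (-0.51 to -0.05) stayed below 0 under all 14 alternatives. Egr3 was among the dim genes left out and has no value there. The cause was not tested.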

Other observations

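Genes with the array pattern most like that of Egr2 were chosen after its values were seen. Over the 6 arrays the highest Pearson correlations with Egr2 were those of the nuclear import receptor Tnpo2, the nuclear body protein Sp100, the DNA-binding protein Ssbp2, the interferon-gamma receptor subunit Ifngr2, the Rap activator Rapgef6 and the lysosomal enzyme Fuca1, all at 0.99. Like Egr2, all 6 were lowest in GPR15- replicate 1. Their differences were 0.31 for Tnpo2, 0.50 for Sp100, 1.19 for Ssbp2, 0.59 for Ifngr2, 1.08 for Rapgef6 and 0.69 for Fuca1. With 19494 genes and 6 arrays, correlations of that size describe these samples and carry no test.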
